A study of Rattus norvegicus with 16 samples.

Results

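H19 and 8 further imprinted growth genes, Igf2, Igf2r, Dlk1, Mest, Cdkn1c, Plagl1, Peg3 and Grb10, were followed in rat ovary by single-colour microarray. The genes were listed by name, and H19 was chosen by its measured signal, which had been seen to be lowest in wild-type vehicle ovaries. Its differences from that group are therefore given as a description with no test. The 9 genes had 17 probes and were among 20215 genes or unnamed probes (features) tested. Where a gene had several probes, the one with the highest mean over the 16 arrays was used. Ovaries of female Sprague-Dawley rats (Jcl:SD) were studied in 4 groups with 4 arrays each. The groups were BRCA1+/- olaparib, BRCA1+/- vehicle, wild-type olaparib and wild-type vehicle. BRCA1+/- animals were heterozygous for BRCA1, which acts in repair of DNA breaks by recombination, and the allele itself is not described in the labels. Olaparib, an inhibitor of the DNA repair enzyme PARP, was injected under the skin once a day at 50 mg/kg for 14 days from 3 weeks of age, and ovaries were taken 24 hours after the last dose; the composition of the vehicle is not described. The labels name 8 rats of each genotype and do not say how littermates were spread over the groups.

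Imprinted genes are expressed mainly from the copy inherited from one parent, and many of them act on fetal and placental growth. H19, a long non-coding RNA expressed from the maternal copy, and Igf2, a growth factor gene expressed from the paternal copy, are neighbours that share enhancers and a control region whose DNA methylation differs between the parental copies. H19 is abundant in embryonic tissues, falls in most organs after birth, and carries the precursor of the microRNA miR-675. In the ovary the insulin-like growth factors act on granulosa and theca cells together with the gonadotropins. Array signals do not tell the parental copies apart, so levels below are totals from both.

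The H19 and Igf2 probes carry the main comparison and the Dlk1 probe the dimmest signal, so their sequences are shown. The array annotation placed the H19 probe at chr1:202822987-202823046 on the minus strand of rat build rn4. It placed the Igf2 probe that was used at chr1:202906641-202906700 and the others at chr1:202923202-202923261 (probe B) and chr1:202909445-202909504 (probe C), all on the minus strand. The Dlk1 probe lay at chr6:134028313-134028372 on the plus strand. The H19 probe and the Igf2 probe that was used were 83.594 kb apart. No gene model of that build was used, so exons and untranslated regions are not assigned. All probes had 60 bases.
H19: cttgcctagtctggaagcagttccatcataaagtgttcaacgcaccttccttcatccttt
Igf2, probe used: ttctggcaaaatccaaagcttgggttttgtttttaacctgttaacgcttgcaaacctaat
Igf2, probe B: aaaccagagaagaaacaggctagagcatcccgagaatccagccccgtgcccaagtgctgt
Igf2, probe C: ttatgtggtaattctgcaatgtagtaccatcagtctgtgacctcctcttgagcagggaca
Dlk1: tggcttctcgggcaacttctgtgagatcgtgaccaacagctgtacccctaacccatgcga

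The microRNA held within the H19 gene is shown because the H19 probe reads the host RNA and not the microRNA. RefSeq gives both mature arms on the minus strand of build GRCr8, at chr1:207161800-207161821 and chr1:207161766-207161786, with the seed (bases 2 to 8) in capitals here.
rno-miR-675-5p: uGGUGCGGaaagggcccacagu
rno-miR-675-3p: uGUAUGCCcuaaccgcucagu

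Of the other probes, the array annotation placed Igf2r at chr1:42340766-42340825 (plus strand), Plagl1 at chr1:7921813-7921873 (plus), Peg3 at chr1:65528305-65528364 (plus) and Grb10 at chr14:92815584-92815643 (minus). Only part of the Cdkn1c probe was aligned, at chr1:203835188-203835202 (minus). The Mest probe had no position there, and RefSeq puts Mest on chromosome 4.

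Every array gave a usable signal. Between 55.5% and 60.7% of probes exceeded background clearly on an array and none of the spots was saturated. Pearson's r between any pair of arrays ran from 0.902 to 0.992. Ovary markers were present: the granulosa genes Amh and Foxl2, the oocyte genes Zp3 and Gdf9 and the theca gene Cyp17a1 were well above background on all 16 arrays. Cyp17a1 varied widely, from -1.93 to 5.70 in BRCA1+/- olaparib and from -1.74 to 4.90 in wild-type vehicle ovaries (log2 signal). It ran from 3.70 to 5.22 in BRCA1+/- vehicle and from 4.28 to 6.41 in wild-type olaparib ovaries. The relation of that spread to the members was not tested. Brca1 averaged -0.72 ± 0.36 in BRCA1+/- olaparib, -1.12 ± 0.31 in BRCA1+/- vehicle, -0.56 ± 0.49 in wild-type olaparib and -0.44 ± 0.36 in wild-type vehicle ovaries (log2 signal, SD, n = 4 each). Its BRCA1+/- minus wild-type difference under vehicle was -0.67 ± 0.27 (SE), which did not pass the test across all features (limma adjusted p = 0.862). The arrays lay on 2 slides, each with 2 arrays of every group. On both slides each group occupied its own column of array positions, so group and position on the slide cannot be told apart.

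The arrays also differed in tissue markers. A score for each marker list was the mean over its tested genes of the log2 signal minus that gene's mean over the 16 arrays. The oviduct and ciliated epithelium list (13 of 15 genes tested) ran from -1.75 to 2.52 in BRCA1+/- olaparib, from -1.90 to 3.70 in BRCA1+/- vehicle, from -1.51 to 3.41 in wild-type olaparib and from -2.35 to -1.28 in wild-type vehicle ovaries. It was above 0 on 6 arrays, replicates 3 and 4 of both BRCA1+/- groups and replicates 1 and 3 of wild-type olaparib, and on no wild-type vehicle array. Of its 13 tested genes, 9 were well above background on every BRCA1+/- olaparib array, 10 on every BRCA1+/- vehicle array, 10 on every wild-type olaparib array and 8 on every wild-type vehicle array, and the cilia gene Dnai1 was below that level on all 4 wild-type vehicle arrays. The adipocyte list (8 of 11 tested) ran from -0.78 to 0.48, -0.66 to 1.11, -2.10 to 3.85 and -2.75 to -0.06 in the same order of groups, with 7, 7, 6 and 3 of its genes well above background on every array and Lep below it on all wild-type vehicle arrays. H19, the other members and the named genes of each list are therefore also given for the 10 arrays with an oviduct score at or below 0, wherever wild-type vehicle enters; the relation of the markers to each result was not tested.

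H19 signal was lowest in all 4 wild-type vehicle ovaries. Values here are log2 of the processed spot signal relative to the array's own 75th percentile, so levels of different probes are not comparable. The H19 values were 1.11, 2.32, 2.36 and 1.25 in BRCA1+/- olaparib ovaries. They were 2.72, 1.15, 2.65 and 2.64 in BRCA1+/- vehicle ovaries. In wild-type olaparib ovaries they were 2.72, 1.86, 1.56 and 2.49. In wild-type vehicle ovaries they were 0.44, 0.26, 0.76 and 0.65, and each of these lay below every one of the other 12 arrays. The nearest values on the 2 sides of that gap were 1.11 in a BRCA1+/- olaparib ovary and 0.76 in a wild-type vehicle ovary, 0.35 apart. The other 3 groups overlapped each other, and the BRCA1+/- groups each held arrays near 1.1 as well as arrays above 2.3.

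The group means of H19 were 1.76 ± 0.67 in BRCA1+/- olaparib, 2.29 ± 0.76 in BRCA1+/- vehicle, 2.16 ± 0.54 in wild-type olaparib and 0.53 ± 0.22 in wild-type vehicle ovaries (SD, n = 4 each). The olaparib minus vehicle difference in wild-type ovaries was 1.63, or 3.1-fold. The BRCA1+/- minus wild-type difference under vehicle was 1.77, or 3.4-fold. Both share the same 4 wild-type vehicle arrays. Both also describe the low group for which H19 was picked, so neither carries a p-value. The plot of log2 differences by contrast draws 95% intervals for them as open red points. Those intervals take no account of how H19 was picked and support no test. In whole tissue, fewer cells of a type and less RNA per cell cannot be told apart.

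The contrasts that leave out wild-type vehicle could be tested. Olaparib minus vehicle in BRCA1+/- ovaries was -0.53 for H19 (95% interval -1.37 to 0.31), with a limma adjusted p of 1.00 over all features. BRCA1+/- minus wild-type under olaparib was -0.40 (-1.24 to 0.44), again with an adjusted p of 1.00. Neither difference was larger than the spread between replicates, and the intervals still include falls of more than 1 unit. The difference between the olaparib responses of the genotypes, BRCA1+/- minus wild-type, was -2.16, a description since it too contains the wild-type vehicle arrays.

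Because no wild-type vehicle array overlapped the rest, the sign of direct H19 differences from that group is fixed for any choice of arrays. These are olaparib minus vehicle in wild-type ovaries and BRCA1+/- minus wild-type under vehicle, and only their size can vary. On slide 1, which held replicates 1 and 2, the olaparib minus vehicle difference in wild-type was 1.94 and the BRCA1+/- minus wild-type difference under vehicle was 1.59; on slide 2 they were 1.32 and 1.94. Over the 10 arrays with an oviduct score at or below 0, H19 was 1.11 and 2.32 in BRCA1+/- olaparib (mean 1.71, n = 2), 1.15 and 2.72 in BRCA1+/- vehicle (mean 1.94, n = 2), 1.86 and 2.49 in wild-type olaparib (mean 2.17, n = 2) and averaged 0.53 in wild-type vehicle ovaries (n = 4). The same differences over those arrays were 1.65 and 1.41. The part of other tissue on the remaining arrays was not tested.

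**Figure D1:**
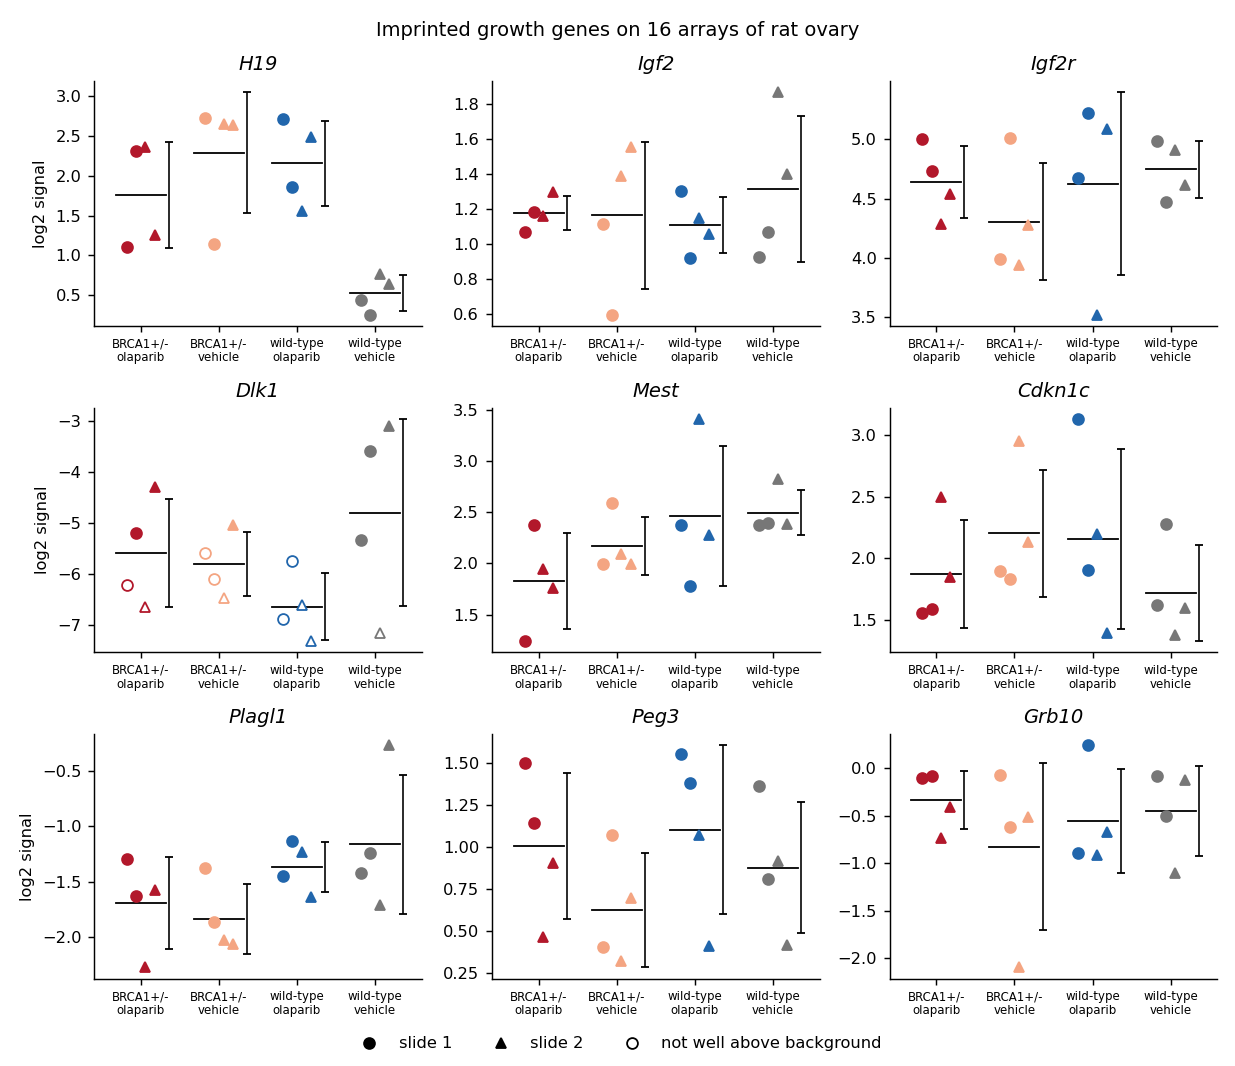
Log2 signal relative to each array's 75th percentile (vertical axis, a separate scale for each gene) for the 9 genes on 16 arrays, by group; circles are slide 1, triangles slide 2, open symbols spots not well above background, horizontal lines group means and bars SD (n = 4). In the H19 panel the 4 wild-type vehicle arrays lie between 0.26 and 0.76, below the other 12 arrays, which start at 1.11.

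That arrangement was also counted over all features. All 4 wild-type vehicle arrays lay below the other 12 for 8 of 20215 features (0.0396%), of which H19 was 1 by choice. The count was not set against what arrays dealt to groups at random would give. It therefore does not show the arrangement to be rare. The named ones among the rest were Dync2i1 and Kif9, genes of cilia, Hspa4l, a heat shock protein, Nr4a3, an orphan nuclear receptor, Ovol2, an epithelial transcription factor, and Slc37a1, a sugar-phosphate transporter; they are named because the count is small, after their values were seen. The gap between the groups was 0.35 for H19, 0.42 for Ovol2, 0.17 for Hspa4l and between 0.06 and 0.13 for the other 5 features, 1 of them without a name. Ovol2 and the unnamed probe were well above background on 10 of 16 arrays only.

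The genes whose values over the 16 arrays were most like those of H19 were taken from 16340 named features by Pearson's r, as a description. They were Rbp7, a retinol binding protein (r = 0.869), Hspa4l (0.851), the uncharacterised LOC100909946 (0.842), Sowahb (0.841) and Sema3f, a secreted semaphorin (0.822). With every group centred on its own mean, r was 0.640 for Rbp7, 0.619 for Hspa4l, 0.773 for LOC100909946, 0.714 for Sowahb and 0.725 for Sema3f. All were measured on the same arrays as H19 and share its scaling. Rbp7 averaged 0.08 ± 0.76, 0.70 ± 0.81 and 0.60 ± 0.47 in BRCA1+/- olaparib, BRCA1+/- vehicle and wild-type olaparib ovaries, and -1.29 ± 0.77 in wild-type vehicle ovaries (SD, n = 4 each).

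Igf2, the neighbour of H19 and a secreted ligand of the IGF1 receptor, had no such gap between wild-type vehicle and the rest. Its values were 1.07, 1.18, 1.16 and 1.30 in BRCA1+/- olaparib and 1.11, 0.60, 1.38 and 1.55 in BRCA1+/- vehicle ovaries. They were 1.30, 0.92, 1.15 and 1.06 in wild-type olaparib and 0.92, 1.07, 1.86 and 1.40 in wild-type vehicle ovaries. All 4 groups overlapped, and both the highest value (wild-type vehicle) and the lowest (BRCA1+/- vehicle) came from vehicle ovaries. The group means were 1.18 ± 0.10, 1.16 ± 0.42, 1.11 ± 0.16 and 1.31 ± 0.42 in the same order (SD, n = 4 each). Olaparib minus vehicle was 0.01 in BRCA1+/- ovaries (95% interval -0.47 to 0.50) and -0.21 in wild-type ovaries (-0.69 to 0.28). BRCA1+/- minus wild-type was 0.07 under olaparib (-0.42 to 0.56) and -0.15 under vehicle (-0.64 to 0.33), and no adjusted p was below 0.941. The differences from wild-type vehicle were -0.32 for olaparib in wild-type and -0.46 for genotype over the 10 arrays with low oviduct score.

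The other Igf2 probes gave dimmer signals, with larger differences in BRCA1+/- ovaries. Probe B averaged -4.40 ± 0.42, -4.08 ± 0.22, -4.11 ± 0.36 and -4.10 ± 0.31 in BRCA1+/- olaparib, BRCA1+/- vehicle, wild-type olaparib and wild-type vehicle ovaries (SD, n = 4 each). Probe C averaged -4.73 ± 0.54, -4.07 ± 0.47, -4.45 ± 0.22 and -4.28 ± 0.57 and was well above background on 15 of 16 arrays. Their olaparib minus vehicle differences in BRCA1+/- ovaries were -0.33 and -0.66, where the probe that was used gave 0.01, so the Igf2 probes disagree in that contrast. In wild-type ovaries the same contrast was -0.01 and -0.17. These probes were not tested singly.

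The relation of H19 to Igf2 was tested over the 12 arrays other than wild-type vehicle, a choice made after seeing the data, because the wild-type vehicle values had led to the choice of H19. Pearson's r was 0.545 (two-sided permutation p = 0.0626, adjusted p = 0.392 over the 8 relations of H19 to the other members) and Spearman's rho 0.483 (permutation p = 0.115). The relation did not pass. Over all 16 arrays r was 0.106 and rho 0.200, given as a description with no p. In other sets that still held wild-type vehicle arrays, r was -0.057 without the 2 arrays farthest from the median of H19, 0.498 within slide 1 and -0.402 within slide 2 (8 arrays each). It was 0.555 over the 16 arrays with each group centred on its mean. Over the 10 arrays with low oviduct score it was -0.148. The negative values all came from sets that held wild-type vehicle arrays, whose low H19 had led to its choice. The change of sign is therefore a description only.

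**Figure D2:**
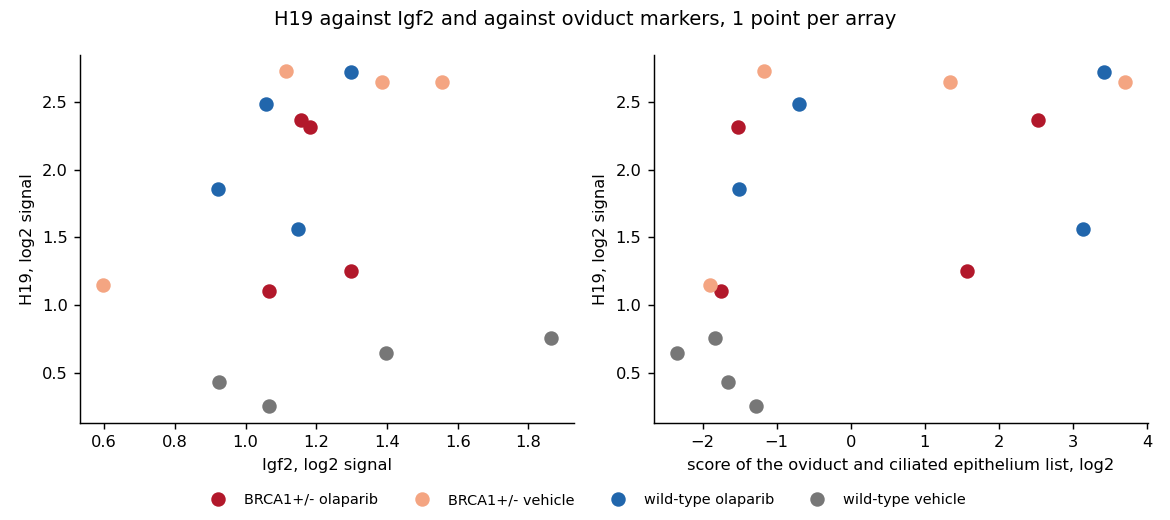
H19 log2 signal (vertical axes) against Igf2 log2 signal (left) and against the oviduct and ciliated epithelium score (right), 1 point per array, coloured by group. Wild-type vehicle arrays have Igf2 values from 0.92 to 1.86 at the lowest H19 values, and they have oviduct scores between -2.35 and -1.28, within which BRCA1+/- and wild-type olaparib arrays with higher H19 also lie.

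Over the 12 arrays other than wild-type vehicle the remaining relations of H19 ran from r = -0.491 for Peg3 (permutation p = 0.107) to 0.446 for Cdkn1c (permutation p = 0.147), with -0.330 for Plagl1 (permutation p = 0.291). The lowest adjusted p of the 8 was 0.392, so none passed. As a description over all 16 arrays, r was -0.482 for Plagl1, -0.464 for Dlk1 and 0.453 for Cdkn1c. For comparison, the features most like Igf2 over the 16 arrays were LOC108350506 (r = 0.863), Arid3c (0.846), LOC102549750 (0.825), Vstm2b (0.817) and Plekhh2 (0.795). None of these appeared among the 5 most like H19.

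Igf2r encodes the receptor that clears IGF2 from the cell surface to the lysosome and is expressed from the maternal copy in rodents. It measured 5.0, 4.73, 4.28 and 4.54 in BRCA1+/- olaparib and 3.99, 5.01, 3.94 and 4.28 in BRCA1+/- vehicle ovaries. It measured 4.67, 5.22, 3.52 and 5.09 in wild-type olaparib and 4.99, 4.47, 4.91 and 4.62 in wild-type vehicle ovaries. The groups overlapped, with the widest spread in wild-type olaparib (SD 0.77). Olaparib minus vehicle was 0.33 in BRCA1+/- ovaries (95% interval -0.39 to 1.05) and -0.12 in wild-type ovaries (-0.84 to 0.60). The wild-type difference rested on replicate 3 of wild-type olaparib, without which it was 0.25. BRCA1+/- minus wild-type was 0.01 under olaparib and -0.44 under vehicle (-1.16 to 0.28). On the arrays with low oviduct score the differences from wild-type vehicle were 0.41 for olaparib and -0.24 for genotype.

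Grb10, an adaptor protein that binds the insulin and IGF1 receptors and dampens their signal, measured -0.10, -0.08, -0.73 and -0.41 in BRCA1+/- olaparib and -0.07, -0.61, -2.10 and -0.51 in BRCA1+/- vehicle ovaries. In wild-type olaparib it measured -0.89, 0.25, -0.91 and -0.67, and in wild-type vehicle ovaries -0.08, -0.50, -1.10 and -0.12. The groups overlapped in all 4 comparisons. Olaparib minus vehicle in BRCA1+/- ovaries was 0.49 (95% interval -0.35 to 1.34), and its second probe gave -0.25, the opposite sign. The other Grb10 differences lay between -0.37 and 0.22. Those from wild-type vehicle, over the arrays with low oviduct score, were 0.24 for olaparib and 0.11 for genotype.

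Dlk1, a transmembrane protein of the Notch ligand family and a marker of immature cells, was near the limit of detection. Its values were -6.22, -5.19, -6.65 and -4.30 in BRCA1+/- olaparib, with 2 of 4 arrays well above background. They were -5.59, -6.10, -6.48 and -5.04 in BRCA1+/- vehicle, with 1 of 4. In wild-type olaparib they were -6.89, -5.75, -6.61 and -7.32, with none of 4, and in wild-type vehicle -5.34, -3.59, -7.16 and -3.09, with 3 of 4. Wild-type vehicle ovaries held the highest values and also the next to lowest of all 16. The probe entered the test only through wild-type vehicle, so its low values elsewhere were part of the filter and its difference from that group supports nothing.

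For wild-type olaparib, where Dlk1 was not well above background on any array, only a rough bound was available, as a description. The mean of the 4 wild-type vehicle arrays was set against wild-type olaparib values raised, array by array, to the lowest signal of any probe well above background. By that bound the level was 1.63-fold lower in wild-type olaparib than in wild-type vehicle ovaries. It is not a strict limit, since replicate 3 of wild-type vehicle was itself not well above background. The measured means were -6.64 ± 0.66 and -4.79 ± 1.85 (SD, n = 4 each). The bound was 1.10-fold without replicate 4 of wild-type vehicle and 2.81-fold without its replicate 3. The difference is given with no test, and with normexp background correction it was -0.46 where the processed signal gave -1.85. In BRCA1+/- ovaries olaparib minus vehicle was 0.21 (95% interval -1.40 to 1.83).

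Mest, a hydrolase-fold protein expressed from the paternal copy, measured 1.24, 2.38, 1.94 and 1.76 in BRCA1+/- olaparib and 2.00, 2.59, 2.09 and 2.00 in BRCA1+/- vehicle ovaries. It measured 2.38, 1.78, 3.42 and 2.28 in wild-type olaparib and 2.38, 2.40, 2.83 and 2.38 in wild-type vehicle ovaries. The lowest array was a BRCA1+/- olaparib one and the highest a wild-type olaparib one, and the groups overlapped. BRCA1+/- minus wild-type was -0.63 under olaparib (95% interval -1.30 to 0.03; limma adjusted p = 1.00) and -0.33 under vehicle (-0.99 to 0.34; adjusted p = 0.895). Averaged over treatments it was -0.48 (-0.95 to -0.01), with an unadjusted p of 0.0463 and an adjusted p of 1.00. The averaged difference was -0.18 within slide 1 and -0.78 within slide 2, and -0.21 over the arrays with low oviduct score. Over those arrays the differences from wild-type vehicle were -0.47 for olaparib and -0.20 for genotype. In same-numbered pairs, as described with Cdkn1c, the BRCA1+/- olaparib minus vehicle differences of Mest were -0.76, -0.21, -0.15 and -0.24, with an adjusted p of 0.751 in the paired limma fit.

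Cdkn1c encodes a cyclin-dependent kinase inhibitor that holds cells out of the cycle and is expressed from the maternal copy. It measured 1.56, 1.58, 2.50 and 1.85 in BRCA1+/- olaparib and 1.90, 1.83, 2.95 and 2.13 in BRCA1+/- vehicle ovaries. In wild-type olaparib it measured 3.14, 1.90, 2.20 and 1.40, and in wild-type vehicle ovaries 1.62, 2.28, 1.38 and 1.60. The highest array of each group except wild-type vehicle had a high oviduct score, and the groups overlapped. Olaparib minus vehicle was -0.33 in BRCA1+/- ovaries (95% interval -1.11 to 0.44) and 0.44 in wild-type ovaries (-0.33 to 1.21). BRCA1+/- minus wild-type was -0.29 under olaparib and 0.49 under vehicle. Same-numbered arrays of the BRCA1+/- groups shared a slide and a row of array positions and deviated together. Taken as pairs, their olaparib minus vehicle differences were -0.34, -0.25, -0.46 and -0.29. A limma fit of the 8 BRCA1+/- arrays with the number as a block, added after seeing the data, gave -0.33. Its 95% interval was -0.63 to -0.03 (limma unadjusted p = 0.0357, adjusted p = 0.751 over all features), so Cdkn1c did not pass. In that fit 1 of 9 members had an unadjusted p below 0.05, as did 1275 of all features (6.31%). No feature passed after adjustment (0%). All 4 pairs of Cdkn1c and of Mest were lower with olaparib, and all 4 of Peg3 were higher. Pairs of both signs were found for H19 (-1.62, 1.17, -0.28 and -1.39), Igf2, Igf2r, Dlk1, Plagl1 and Grb10. How many of all features had 4 pairs of one sign was not counted. The second Cdkn1c probe gave -0.35, 0.33, -0.30 and 0.38 for the 4 group contrasts above, so the probes had the same signs throughout. Over the 10 arrays with low oviduct score the wild-type olaparib minus vehicle difference was -0.07 and the genotype difference under vehicle 0.15.

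Plagl1, a zinc-finger transcription factor expressed from the paternal copy that is known in mouse to act on other imprinted genes, measured -1.29, -1.63, -2.28 and -1.58 in BRCA1+/- olaparib and -1.38, -1.87, -2.03 and -2.06 in BRCA1+/- vehicle ovaries. In wild-type olaparib it measured -1.45, -1.13, -1.23 and -1.64, and in wild-type vehicle ovaries -1.42, -1.24, -1.72 and -0.26. Most BRCA1+/- arrays were below most wild-type arrays, with overlap in both treatments. BRCA1+/- minus wild-type was -0.33 under olaparib (95% interval -0.96 to 0.30) and -0.68 under vehicle (-1.30 to -0.05). Under vehicle the unadjusted p was 0.0370 and the limma adjusted p 0.862. Without replicate 4 of wild-type vehicle that difference was -0.38, and the second Plagl1 probe gave -0.29. Over the 10 arrays with low oviduct score it was -0.46, and olaparib minus vehicle in wild-type was -0.23. Under vehicle the genotype difference was -0.29 within slide 1 and -1.06 within slide 2. Averaged over treatments the difference was -0.50 (unadjusted p = 0.0292, adjusted p = 1.00). That averaged difference was -0.23 within slide 1 and -0.77 within slide 2, and -0.27 over the arrays with low oviduct score.

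Peg3, a zinc-finger protein expressed from the paternal copy, measured 1.50, 1.14, 0.47 and 0.91 in BRCA1+/- olaparib and 0.41, 1.07, 0.32 and 0.70 in BRCA1+/- vehicle ovaries. It measured 1.55, 1.38, 1.07 and 0.41 in wild-type olaparib and 1.36, 0.81, 0.92 and 0.42 in wild-type vehicle ovaries. Arrays of one group lay as far apart as arrays of different groups, and the groups overlapped. Olaparib minus vehicle was 0.38 in BRCA1+/- ovaries (95% interval -0.24 to 1.00) and 0.23 in wild-type ovaries (-0.40 to 0.85). Its other 3 probes gave 0.15, -0.02 and 0.27 in BRCA1+/- and 0.05, 0.03 and 0.55 in wild-type ovaries. The probe behind the last value was well above background on 7 of 16 arrays only. In same-numbered pairs the BRCA1+/- differences were 1.10, 0.07, 0.15 and 0.21 (adjusted p = 0.756 in the paired limma fit). With high-oviduct arrays left out, Peg3 differed from wild-type vehicle by 0.02 for olaparib and -0.14 for genotype.

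**Figure D3:**
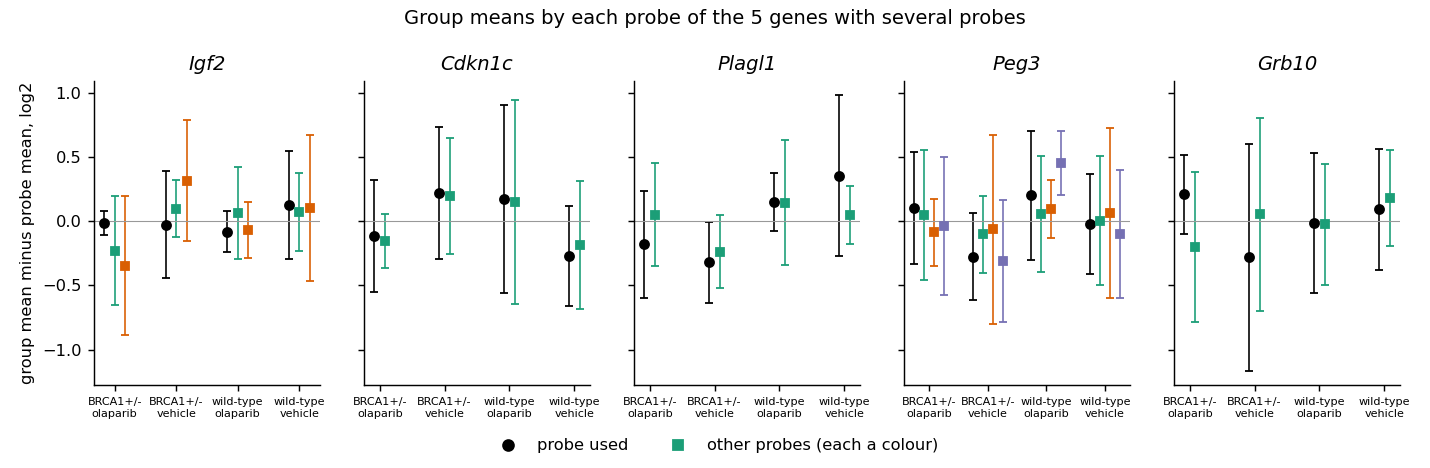
Group mean of each probe minus that probe's mean over 16 arrays, in log2 units with SD bars (n = 4), for the 5 genes with several probes; black circles are the probe used. The Cdkn1c probes move together, while the dimmer Igf2 probes are lower in BRCA1+/- olaparib (means -4.40 and -4.73 in signal) and the Igf2 probe that was used is not.

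Over all features no gene passed an adjusted p of 0.05 in any of the 4 group contrasts (limma, 0%), so the same holds for the members. At an unadjusted p below 0.05, olaparib against vehicle gave 236 features in BRCA1+/- ovaries (1.17% of 20215; 486 with the replicate number as a block in all groups) and 876 in wild-type ovaries (4.33%). BRCA1+/- against wild-type gave 185 under olaparib (0.915%) and 1112 under vehicle (5.50%). Over the 10 arrays with low oviduct score the counts against wild-type vehicle were 639 for olaparib and 746 for genotype. Of the members, 0 of 9, 0 of 7, 0 of 9 and 1 of 7 (Plagl1) were below that level in the same order of contrasts (3.57% of all features were lower in BRCA1+/- under vehicle, as Plagl1 was). H19 was left out where wild-type vehicle enters, and so was Dlk1, which passed the filter through that group alone. In the other contrasts Dlk1 was counted although it was mostly at background. It was well above background on 2, 1 and 0 of 4 arrays of BRCA1+/- olaparib, BRCA1+/- vehicle and wild-type olaparib. Groups did not overlap for 1.10%, 1.15%, 0.584% and 3.44% of features, and among the members for H19 alone, in the contrasts with wild-type vehicle that led to its choice. Averaged over treatments the genotype contrast gave 444 features at that unadjusted level (2.20%) and none after adjustment (0%), with Mest and Plagl1 among 7 members below it, both lower in BRCA1+/- ovaries, as were 1.23% of all features. The difference between the olaparib responses gave 695 features (3.44%) and none after adjustment (0%), with no member among them. The olaparib contrast averaged over genotypes gave 266 (1.32%) and none after adjustment (0%), again with no member. The members' median difference was 0.14 and -0.11 for olaparib in BRCA1+/- and wild-type ovaries, against 0.02 and -0.07 over all features, and -0.10 and -0.35 for genotype under olaparib and vehicle, against 0.02 and -0.06. Where wild-type vehicle enters, these medians are over 8 members, without H19 but with Dlk1, and are descriptions only.

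**Figure D4:**
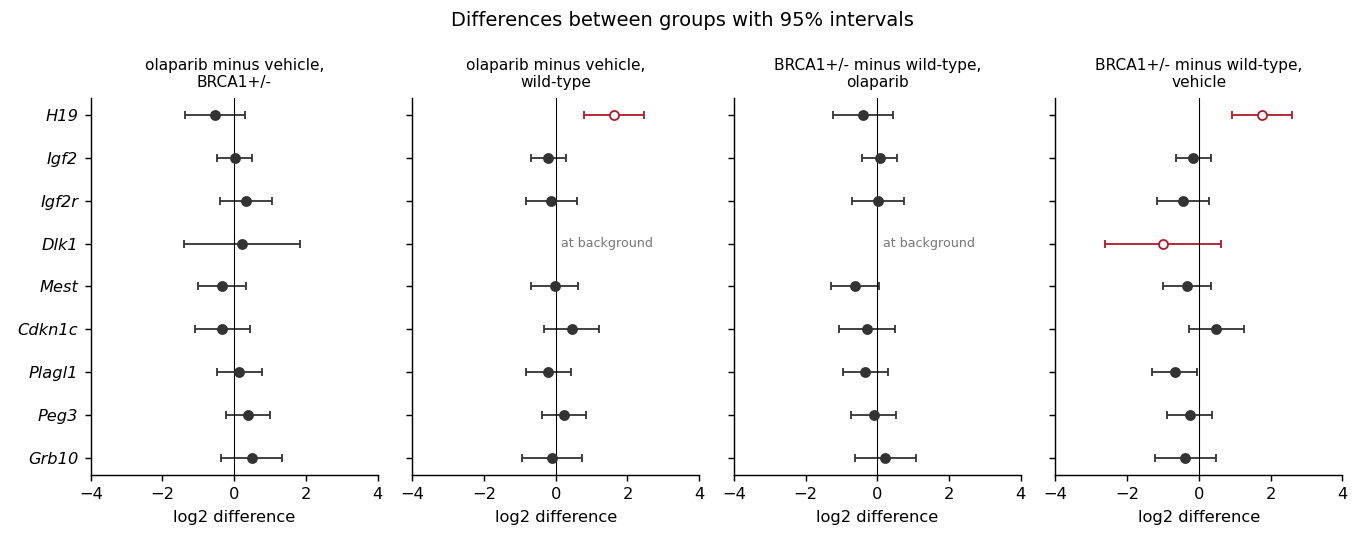
Log2 differences (points) with 95% intervals (bars) from the fit for each gene, in 4 contrasts with n = 4 arrays a group. Open red points are H19 and Dlk1 in contrasts with wild-type vehicle, which support no test. Their bars take no account of how these genes were chosen or filtered. Dlk1 has no point where wild-type olaparib enters, being at background on its 4 arrays. H19 sits at 1.63 and 1.77, and among the filled points the interval of Plagl1 at -0.68 alone leaves out 0, without passing after adjustment.

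Other imprinted genes were read from a list of 47, of which 38 were tested, and none passed after adjustment (0%). At an unadjusted p below 0.05, 0 were higher or lower with olaparib in BRCA1+/- ovaries and 4 were higher with olaparib in wild-type ovaries, where 2.26% of all features were. Under vehicle, 2 were higher in BRCA1+/- than in wild-type ovaries, where 1.93% of all features were, and under olaparib none was. The median differences of the list were 0.00 and 0.02 for olaparib in BRCA1+/- and wild-type ovaries and 0.04 and 0.03 for genotype under olaparib and vehicle. Ddc, which makes dopamine from its precursor, averaged 0.38 ± 1.09 and 0.78 ± 0.27 in BRCA1+/- olaparib and vehicle ovaries and 0.49 ± 1.02 and -1.04 ± 1.09 in wild-type olaparib and vehicle ovaries (SD, n = 4 each). Its genotype difference under vehicle was 1.82 ± 0.61 (SE; unadjusted p = 0.00976, adjusted p = 0.862). Asb4 differed by 1.77 ± 0.74 in the same contrast (adjusted p = 0.862), and the potassium channel gene Kcnq1 by 0.69 ± 0.31 for olaparib in wild-type ovaries (adjusted p = 0.964). Nnat averaged 0.91 ± 0.44, 1.60 ± 0.80, 1.88 ± 1.02 and 0.85 ± 0.36 over the groups from BRCA1+/- olaparib to wild-type vehicle, and its olaparib responses differed by -1.72 ± 0.66 (BRCA1+/- minus wild-type; unadjusted p = 0.0211, adjusted p = 0.968). With the high-oviduct arrays left out these differences were 1.97 for Ddc, 1.84 for Asb4, 0.13 for Kcnq1 and -0.44 for Nnat, and 0 listed genes were higher with olaparib in wild-type at the unadjusted level, where 1.30% of all features were.

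Of 28 genes of the insulin-like growth factor axis 25 were tested and none passed (0%). At an unadjusted p below 0.05 in the genotype contrast under vehicle, 2 of the 25 were higher in BRCA1+/- ovaries (1.93% of all features were) and 1 was lower (3.57%). Foxo1, a transcription factor that insulin signalling holds out of the nucleus, averaged 3.25 ± 0.39, 3.82 ± 0.28, 3.13 ± 0.73 and 3.17 ± 0.13 over BRCA1+/- olaparib, BRCA1+/- vehicle, wild-type olaparib and wild-type vehicle ovaries. Its difference in that contrast was 0.65 ± 0.31 (adjusted p = 0.862), and that of Igfbp1, a binding protein that carries IGFs, was 0.73 ± 0.32 (adjusted p = 0.862). Akt2, a kinase downstream of the receptors, differed by -0.93 ± 0.35 (adjusted p = 0.862). Igfbp3, the main IGF carrier of blood, averaged 3.25 ± 0.62, 4.37 ± 0.70, 4.10 ± 1.57 and 3.02 ± 0.77 over the groups, with responses to olaparib that differed by -2.20 ± 0.92 between the genotypes (adjusted p = 0.968). Arrays with low oviduct score alone gave differences of 0.81 for Foxo1, 1.23 for Igfbp1, -1.01 for Akt2 and -3.45 for Igfbp3.

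The list of cyclin-dependent kinase inhibitors held 7 genes other than Cdkn1c, with Cdkn3 taken in by its name. All 7 were tested and none passed (0%). In wild-type ovaries all 7 had negative olaparib differences, with a median of -0.42, where the median over all features was -0.07. The genotype difference under olaparib, which uses the same wild-type olaparib arrays, was positive for all 7. Its median was 0.17 against 0.02 over all features. Over the arrays with low oviduct score it was positive for 5 of 7 and negative for 2. Cdkn2a, which blocks the kinases of early cell cycle entry, averaged -2.19 ± 0.48 and -2.50 ± 0.75 in BRCA1+/- olaparib and vehicle ovaries and -3.63 ± 1.27 and -1.66 ± 0.36 in wild-type olaparib and vehicle ovaries (SD, n = 4 each). Its olaparib difference in wild-type was -1.97 ± 0.52 (unadjusted p = 0.00201, adjusted p = 0.964). Cdkn1b differed by -0.87 ± 0.33 (adjusted p = 0.862) and Cdkn2d by -0.59 ± 0.31 between the genotypes under vehicle. Cdkn2b had its widest spread in wild-type olaparib ovaries (0.81 ± 3.11), and its genotype difference under olaparib was 2.16 ± 1.21. At an unadjusted p below 0.05, 1 of 7 was lower with olaparib in wild-type ovaries (2.07% of all features were) and 1 of 7 lower in BRCA1+/- under vehicle (3.57%). Under olaparib 1 of 7 was higher in BRCA1+/- ovaries, where 0.915% of all features were below that level in either direction. Averaged over genotypes 1 of 7 was lower with olaparib (1.32% in either direction). For the difference between the olaparib responses 2 of 7 were positive (3.44% in either direction). Among the arrays with low oviduct score 5 of 7 olaparib differences in wild-type were negative, that of Cdkn2a was -0.97, and the genotype differences under vehicle were -0.61 for Cdkn1b and -0.15 for Cdkn2d, while that of Cdkn2b under olaparib was -1.13.

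Genes that write, keep or erase imprints were tested for 16 of 18, with none past the adjusted threshold (0%). Over all arrays none had an unadjusted p below 0.05 in the 4 contrasts, and their medians lay between -0.04 and 0.01. Among those with the smallest p, Kdm1b, a histone demethylase needed for imprints in mouse oocytes, differed by 0.33 ± 0.17 with olaparib in wild-type ovaries. The DNA methyltransferase gene Dnmt3a differed by -0.52 ± 0.36 with olaparib in BRCA1+/- ovaries, the demethylating enzyme gene Tet3 by -0.45 ± 0.31 between genotypes under olaparib, and Dnmt3l, the partner of the methyltransferases in germ cells, by 0.60 ± 0.43 between genotypes under vehicle. Over all arrays none of these had an unadjusted p below 0.05. Arrays with low oviduct score gave values against wild-type vehicle of 0.10 for Kdm1b and 0.99 for Dnmt3l. There the list medians were 0.19 and 0.23 for genotype under olaparib and vehicle, and -0.01 and -0.10 for olaparib in BRCA1+/- and wild-type ovaries. All 16 genotype differences under olaparib were positive, from 2 arrays a group. At an unadjusted p below 0.05, 2 of these 16 were higher (1.68% of all features were). With olaparib in wild-type ovaries 2 of 16 were lower at that level (1.86%).

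**Figure D5:**
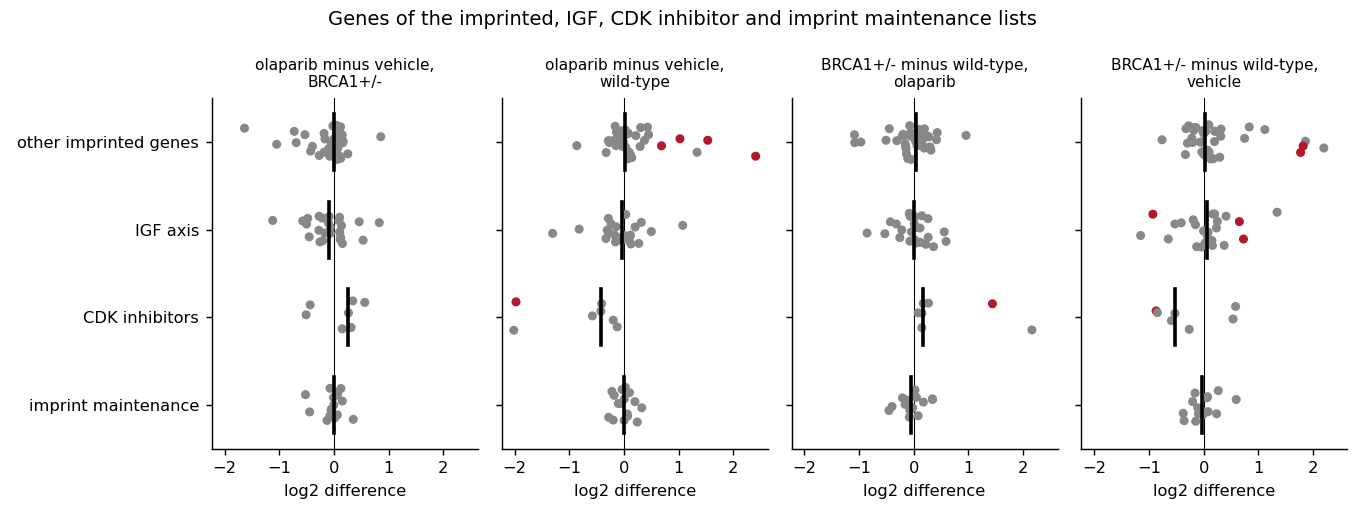
Log2 differences of single genes (points, red where the unadjusted p was below 0.05) in 4 lists and 4 contrasts, with the list median as a black line; vertical scatter within a list only separates points. Medians lie close to 0 except for the 7 CDK inhibitors, with 0.26 and -0.42 for olaparib in BRCA1+/- and wild-type ovaries and 0.17 and -0.52 for genotype under olaparib and vehicle.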

How the data were processed

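Cy3-labelled total RNA of 16 ovaries was read on Agilent whole rat genome arrays with 1 colour, per the labels' protocols. The processed spot signals are intensity values that the authors obtained from Feature Extraction (10.7 per the submitters' processing notes, 10.7.1.1 per the file headers), background-subtracted and not scaled between arrays per the file headers. The authors also deposited a table of log2 values, in which each column was the log2 of that array's processed signal shifted by 1 constant (SD of the difference 0, r = 1), within 0.0098 to 0.0151 of that array's 75th percentile, with column medians from -4.24 to -3.62.

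From these files, log2 processed signal minus each array's 75th percentile over 45598 non-control probes was computed, and 12 probes without a usable spot were left out. Probes well above background on at least 3 of 4 arrays of a group were kept (26808), and the probe with the highest mean was used for each gene (20215 features). Names came from the files' accessions for 21229 probes, from symbols for 9328 and from older symbols for 321; 5270 kept the name in the file and 9450 had none. One model with a mean for each of 4 groups was fitted with limma 3.58.1 in R 4.3.3 (12 residual and 2.433 prior degrees of freedom), with Benjamini-Hochberg adjustment over all features and a threshold of 0.05. Relations between genes used two-sided tests with 100000 permutations. The precision is limited by the number of arrays. Members, gene lists and marker lists were chosen with earlier results of these data known. Named genes were the members, Brca1, the 5 most alike to H19 and to Igf2, and up to 4 of each list by smallest unadjusted p.

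Same-numbered arrays deviated together from their group means in BRCA1+/- olaparib and BRCA1+/- vehicle (r = 0.568, 0.569, 0.714 and 0.392 for numbers 1 to 4), so the numbers in the titles were taken to pair these groups, from the data. They did not pair any other 2 groups, each of which had a correlation below 0.1 (13 of 24 were over 0.1 in all, the lowest -0.442). Slides were taken from the file headers. Same-numbered arrays of every group shared a slide and a row of array positions. In both BRCA1+/- groups numbers 3 and 4 had oviduct scores above 0, and numbers 1 and 2 did not. Pairing of rats, shared position and shared tissue content can therefore not be told apart. Alternatives were quantile normalization, the deposited log2 values as they stand, normexp background correction (offset 50), no filter or a stricter one, the mean of a gene's probes, slide or replicate number as a block, and leaving out each array; the fits without high oviduct score, without wild-type vehicle and of the BRCA1+/- arrays as pairs were chosen after seeing the data.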

Additional observations from a re-analysis of the deposited data

Results flagged for a closer look

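In 3 of 36 sets of 4 arrays (9 genes in 4 groups) a single array stood apart from the other 3 by Dixon's test at the 95% level; chance flags about 1 in 20 such sets. H19 in replicate 2 of BRCA1+/- vehicle was 1.15, where the other 3 arrays lay between 2.64 and 2.72. Mest in the same array was 2.59, where the others lay between 2.00 and 2.09. Mest in replicate 3 of wild-type vehicle was 2.83, where the others lay between 2.38 and 2.40. Replicate 2 of BRCA1+/- vehicle also had the lowest Igf2 value of all 16 arrays, 0.60, and the lowest oviduct score of its group, -1.90.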

How the results depend on the processing

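The direction of H19 against wild-type vehicle was fixed by its choice, so the alternatives show its size only; its 2 other group contrasts stayed negative under every alternative run. With arrays left out 1 at a time, its difference from wild-type vehicle ran from 1.44 to 1.83 for olaparib in wild-type ovaries and from 1.62 to 2.15 for genotype under vehicle; normexp gave 1.54 and 1.66 and quantile normalization 1.63 and 1.81. Of 41 member differences examined, 26 never changed sign and 15 did under some alternative. The 26 include the differences of H19 and Dlk1 from wild-type vehicle, which the choice or the filter bears on. The count is therefore no measure of stability. No alternative made a member pass the threshold. No feature passed in any contrast, except 1 for olaparib in BRCA1+/- ovaries and 1 for genotype averaged over treatments without replicate 4 of wild-type olaparib (range over left-out arrays 0 to 1 for each). The replicate number as a block gave 0 calls in every contrast, and so did the paired fit of the BRCA1+/- arrays; at an unadjusted p below 0.05 the block gave 486 features for olaparib in BRCA1+/- and 1607 in wild-type ovaries, 394 for genotype under olaparib and 1806 under vehicle. In 13 of 24 pairs, all 4 of the BRCA1+/- groups among them, an array correlated best with its own number in the other group, a hint from the data and not from the design. With no filter, 1408 features had an unadjusted p below 0.05 for genotype under vehicle and 1328 for olaparib in wild-type ovaries, and 0 passed after adjustment. Dlk1 could not be tested when every array had to be above background.

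Left-out arrays turned these small differences. Olaparib in BRCA1+/- ovaries ran from -0.18 to 0.14 for Igf2 and from -0.22 to 0.57 for Dlk1. Olaparib in wild-type ovaries ran from -0.32 to 0.25 for Igf2r, -0.35 to 0.19 for Mest, -0.39 to 0.094 for Plagl1 and -0.37 to 0.018 for Grb10. Genotype under olaparib ran from -0.35 to 0.21 for Igf2r, -0.54 to 0.039 for Cdkn1c and -0.33 to 0.080 for Peg3. Genotype under vehicle ran from -0.28 to 0.038 for Igf2 and -0.62 to 0.052 for Grb10. The mean of a gene's probes gave Igf2 -0.33 (olaparib, BRCA1+/-), -0.17 (genotype, olaparib) and 0.029 (genotype, vehicle). Quantile normalization gave -0.020 for Igf2 (olaparib, BRCA1+/-), -0.0041 for Igf2r (genotype, olaparib) and 0.012 for Mest (olaparib, wild-type), and normexp gave -0.081 for Dlk1 (olaparib, BRCA1+/-) and -0.46 for olaparib in wild-type, without a change of sign. Within slide 1, olaparib in wild-type gave 0.11 for Igf2, 0.22 for Igf2r and 0.038 for Plagl1, genotype under olaparib -0.080 for Igf2r and genotype under vehicle -0.081 for Cdkn1c. Within slide 2, Igf2 was -0.24 (olaparib, BRCA1+/-), Mest 0.24 (olaparib, wild-type) and Cdkn1c 0.37 (genotype, olaparib). Without the 6 arrays of high oviduct score, olaparib in wild-type gave 0.41 for Igf2r, -0.066 for Cdkn1c and 0.24 for Grb10, genotype under olaparib -0.29 for Igf2r and 0.42 for Peg3, and genotype under vehicle 0.11 for Grb10. The relation of H19 to Igf2 was -0.057 without the 2 farthest arrays, -0.402 within slide 2 and -0.148 without the arrays of high oviduct score, where that to Cdkn1c was -0.162 and to Grb10 0.237; without wild-type vehicle that to Mest was 0.054. The cause was not tested.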
